A study of Homo sapiens with 8 samples.

Results

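The promoters described here carried H3K4me3 in every library of that mark and H3K27ac in no library. A promoter was taken as the 5′ end of a protein-coding gene (its transcription start site, TSS) with 1 kb on each side, in the GENCODE annotation of hg19. Members were selected on the measured peaks: an H3K4me3 peak overlapped the promoter in all 4 H3K4me3 libraries and no H3K27ac peak overlapped it in any of the 4 H3K27ac libraries. Of 20162 protein-coding promoters, 10191 (50.5%) had H3K4me3 in all 4 libraries, and 1028 of these (10.1%, or 5.1% of all promoters) had H3K27ac in none. H3K27ac lay on 6486 (63.6%) in all 4 libraries and on 2677 (26.3%) in 1 to 3. The count of members depends on weak H3K27ac peaks, since it was 6433 when H3K27ac peaks with a deposited −log10 q under 5 were ignored.

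The established leukemia cell line HL-60 grows as promyelocytes and matures towards granulocytes under all-trans retinoic acid (ATRA). Cells were given 1 µM ATRA, or the solvent ethanol as control, for 4 days, and each mark was mapped by ChIP-seq in 2 replicates of each condition. All 8 libraries come from this single line, and the labels do not say whether replicates were separate cultures, so the spread between them may be technical. The files hold peak positions without read counts, so how deeply each library was sequenced is unknown. The H3K4me3 library of control replicate 2 had the fewest peaks, 13241 against 16160 to 16487 in the other libraries of this mark, and the H3K27ac libraries ranged from 15457 to 39332 peaks. Of the promoters of 12 genes that mark HL-60 or neutrophil precursors, 7 had H3K4me3 in all 4 libraries, among them MPO, CTSG, SPI1 and CEBPE. No H3K4me3 peak lay at the annotated 5′ ends of ELANE, AZU1 and LYZ. Of 7 non-blood marker genes, 0 had H3K4me3 in all 4 libraries, and 1 of 10 markers of other blood cells (ITGA2B) did. None of these 29 genes was a member.

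Trimethylation of lysine 4 on histone H3 is laid down by the SET1 and MLL methyltransferases at promoters, and CpG-rich DNA recruits these complexes through proteins that bind unmethylated CpG. Acetylation of lysine 27 is written by the p300 and CBP acetyltransferases and marks promoters and enhancers in use. H3K4me3 without this acetylation is known from promoters that are idle or held by Polycomb, as at developmental genes in stem cells. Polycomb marks and transcription were not measured in these libraries.

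The sequences next to these promoters were mostly of the CpG-rich kind. Within 500 bp of the TSS, the members had a median GC content of 64.5% and a median ratio of observed to expected CpG of 0.77. By a GC content above 50% and a CpG ratio above 0.6, 79.7% of them were island-like, compared with 84.8% of the promoters with H3K27ac in all 4 libraries and 30.9% of those without H3K4me3 in any library. The members therefore lay close to the acetylated promoters and far from the unmarked ones in this property. A CpG ratio under 0.4 was found in 91 members (8.85%), compared with 5.16% and 53% in those 2 classes. A TATA box between 35 and 20 bases upstream of the TSS was held by 11 members (1.07%), near the 0.981% of all H3K4me3 promoters.

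The 200 bases upstream of the annotated 5′ end are shown for 6 members to let the range of CpG content be seen, with every CpG in capitals, 5′ to 3′ on the strand of the gene, from GRCh37. AQP6 has one of the falls in width described further on, and BRICD5 is the widest CpG-poor member that was not passed over. The others are the widest members not passed over in lists of developmental transcription factors (SHOX2), signalling genes (GDF11), ion channels (CACNB3) and ciliary genes (INPP5E). LY6G5B and ENSG00000272617, also CpG-poor, were wider than BRICD5, and CCDC106 was wider than INPP5E. Members higher in rank were passed over where the bases overlapped an annotated exon. These stretches are thus upstream of the gene and in no annotated exon or UTR. The number of CpG in the stretch ran from 4 for CACNB3 and 7 for BRICD5 to 14 for GDF11 and 25 for INPP5E. The TSS bases of CACNB3 and AQP6 were not under an H3K4me3 peak in every library. At CACNB3 the peak center lay a mean of 3372 bp downstream, and another start of the gene had H3K27ac in 2 libraries.
AQP6 (chr12:50360777-50360976, plus strand): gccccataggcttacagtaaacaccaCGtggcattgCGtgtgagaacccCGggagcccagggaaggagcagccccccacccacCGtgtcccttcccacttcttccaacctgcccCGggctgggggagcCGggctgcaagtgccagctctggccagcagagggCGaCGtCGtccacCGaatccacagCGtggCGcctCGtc
BRICD5 (chr16:2260907-2261106, minus strand): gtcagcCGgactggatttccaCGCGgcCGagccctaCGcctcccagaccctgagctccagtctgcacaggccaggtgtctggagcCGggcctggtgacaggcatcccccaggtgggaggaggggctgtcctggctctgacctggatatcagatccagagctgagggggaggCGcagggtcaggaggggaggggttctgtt
SHOX2 (chr3:157824210-157824409, minus strand): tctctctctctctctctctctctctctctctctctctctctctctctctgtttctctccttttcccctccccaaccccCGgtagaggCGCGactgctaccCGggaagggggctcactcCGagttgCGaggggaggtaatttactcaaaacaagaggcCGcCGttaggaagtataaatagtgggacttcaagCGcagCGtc
GDF11 (chr12:56136706-56136905, plus strand): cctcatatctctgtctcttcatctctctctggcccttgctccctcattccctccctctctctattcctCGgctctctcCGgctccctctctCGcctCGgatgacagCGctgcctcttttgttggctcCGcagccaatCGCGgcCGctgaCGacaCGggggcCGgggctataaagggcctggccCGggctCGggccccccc
CACNB3 (chr12:49207377-49207576, plus strand): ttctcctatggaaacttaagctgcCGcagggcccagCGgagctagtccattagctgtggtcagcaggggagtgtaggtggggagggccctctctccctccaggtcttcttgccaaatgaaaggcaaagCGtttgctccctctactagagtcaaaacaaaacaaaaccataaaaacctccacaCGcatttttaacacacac
INPP5E (chr9:139334298-139334497, minus strand): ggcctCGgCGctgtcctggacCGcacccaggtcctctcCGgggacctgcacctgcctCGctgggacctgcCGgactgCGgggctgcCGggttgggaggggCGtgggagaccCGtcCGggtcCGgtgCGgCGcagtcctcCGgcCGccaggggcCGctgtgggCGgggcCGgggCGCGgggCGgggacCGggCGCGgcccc

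Short motifs were counted on both strands from 250 bases upstream to 50 downstream of the TSS. The ETS motif CCGGAAG, bound by ETS factors such as GABPA, was in 11% of the members, 21.8% of the promoters with H3K27ac in all 4 libraries and 11.8% of all 20162 promoters. Its share rose with the number of H3K27ac libraries, at 14.5%, 15.3% and 20.2% for 1, 2 and 3 libraries. The members thus held this motif about as often as promoters in general, while the share among H3K4me3 promoters with H3K27ac was higher. The order was the same at matched base composition: in the terciles of GC content, from low to high, the shares were 12%, 12.6% and 9.5% in members and 20.9%, 25.1% and 19.1% in promoters acetylated in all 4 libraries. It was also the same in the tercile of shortest H3K4me3 width, with 10.3% and 21.5%. At the 5′ ends of canonical transcripts, selected by the same rule, the shares were 11.8% and 25.7%.

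The YY1 motif AAGATGGCG was found in 11 members (1.07%), compared with 4.22% of the promoters acetylated in all 4 libraries and 1.86% of all promoters. For the cAMP response element TGACGTCA these shares were 1.36%, 3.92% and 2.29%. For both motifs the share of the members was under that of all promoters, which for YY1 rests on 11 matches. At canonical 5′ ends the YY1 motif was in 1.96% of the members selected there and 6.29% of the acetylated class. The response element was in 1.77% and 4.45% there. The GC box GGGGCGG, bound by SP and KLF factors, went the other way. It was in 57.8% of the members, 45.4% of the acetylated class and 36.6% of all promoters. Base composition went along with this share, which in the terciles of GC content was 24.3%, 53.4% and 78.7% in members and 23%, 46.5% and 70.1% in the acetylated class. None of these motifs contains another. A match is a string of letters in a window, and promoters in 1 genome are not replicates, so these shares are given without a test.

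The H3K4me3 peaks of the members were short. Width was measured as the summed length of the H3K4me3 peaks touching the promoter. The median width of the members was 3828 and 3855 bp in the 2 ATRA libraries and 3628 and 2805 bp in the 2 control libraries. For promoters with H3K27ac in all 4 libraries the medians were 6209, 6195, 5892 and 5098 bp in the same order. In each library the upper quartile of the members, between 3871 and 5220 bp, lay under the median of the acetylated class. Averaged over the 4 libraries, the median width went from 3532 bp in members to 4013, 4406, 5033 and 5870 bp at promoters with H3K27ac in 1, 2, 3 and 4 libraries. Since peaks of both marks chose the members, these widths are a description without a test.

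**Figure D1:**
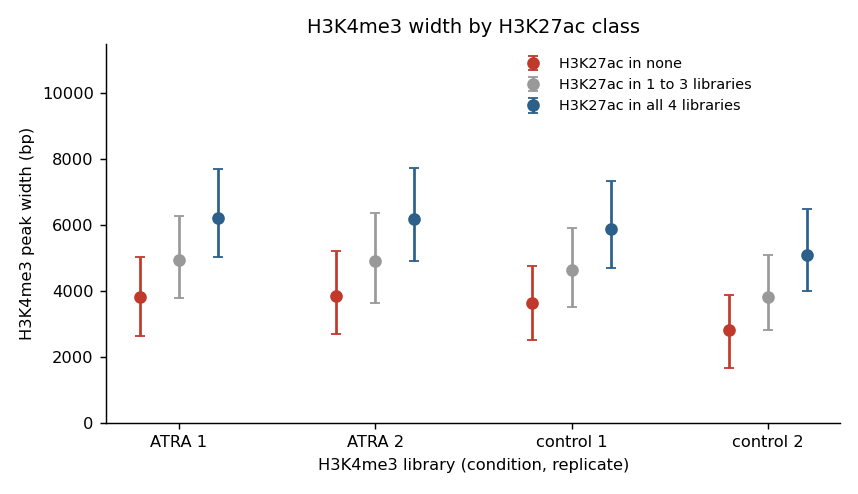
H3K4me3 peak width in bp (vertical axis) in each of the 4 H3K4me3 libraries (horizontal axis), for promoters with H3K27ac in none (n = 1028), in 1 to 3 (n = 2677) and in all 4 (n = 6486) libraries; points are medians over promoters and bars run from the lower to the upper quartile. The class without H3K27ac was the shortest in every library, and control replicate 2 was the shortest library for every class.

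Among the 10191 promoters ranked by mean width, members made up 38.9% of the shortest decile (up to 3107 bp) and 19.4% of the next, then fell to 2.16% in the longest (from 8578 bp). The members' own mean widths ran from 437 bp at CDK11A, a cyclin-dependent kinase gene, to 21983 bp at LY6G5B, with quartiles of 2507 and 4714 bp. The members' peaks also had lower q-value scores. The median −log10 q of the members' peaks was 14 and 11.8 in the ATRA libraries and 15.8 and 12.8 in the control libraries, compared with 16.5, 13.9, 18.8 and 14.5 in the acetylated class. A value of 5 or more was reached by 77.4% to 87% of the members in a library.

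The peaks of the members extended mainly downstream of the TSS, as at other promoters. Their center lay a median of 474 bp downstream, and downstream of the TSS in 76.9% of the members, compared with 745 bp and 78% in the acetylated class. The TSS base itself was under a peak in all 4 libraries for 754 members (73.3%) and for 97.6% of the acetylated class. In the plot of coverage around the TSS, H3K4me3 covered 44.7% to 63.4% of the members at 2 kb downstream and 14% to 30% at 2 kb upstream. H3K27ac is 0 at the TSS of the members by the rule, and at 2 kb downstream it covered 2.14% to 5.16% of them in the 4 H3K27ac libraries.

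**Figure D2:**
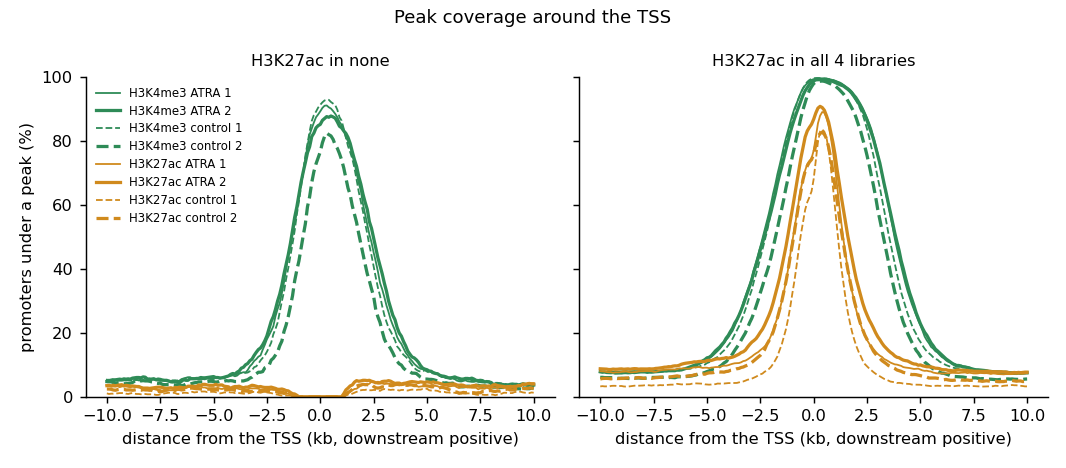
Share of promoters under a peak (vertical axis, %) by distance from the TSS (horizontal axis, kb, downstream positive) for promoters without H3K27ac (left) and with H3K27ac in all 4 libraries (right); green lines are H3K4me3 and orange lines H3K27ac, solid for ATRA and dashed for control, with the thicker line for replicate 2. H3K4me3 at members peaked at 82.5% to 92.9% against 98.8% to 99.7% in the acetylated class, and H3K27ac stayed at or under 5.16% of members over the 10 kb on each side.

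A part of the class consisted of annotated 5′ ends reached by the H3K4me3 domain of a neighbor. All 10 of the widest members shared their peak with at least 1 other protein-coding TSS, and in all 10 an H3K27ac peak of each of the 4 libraries touched the H3K4me3 peak outside the 1 kb window. LY6G5B, a surface protein gene of the LY6 family in the major histocompatibility region, had widths of 22460 and 22653 bp under ATRA and 21872 and 20945 bp in control cells, over a peak that held 6 other protein-coding TSS. CCDC106 followed with 20095 and 28733 bp under ATRA and 28469 and 10078 bp in control cells. BRICD5 had 14211 and 13863 bp under ATRA and 15176 and 12468 bp in control cells. Others of the 10 were LRRC24 (which shares its peak with C8orf82), ENSG00000272617, ENSG00000288699, TMEM253, PCGF2 and PCP2, with mean widths from 10755 to 20600 bp. In contrast, none of the 5 shortest members (CDK11A, SLC2A4, ZNF816-ZNF321P, MCAM and TIMM23, with mean widths from 437 to 564 bp) had H3K27ac on its peak or another protein-coding TSS in it. CDK11A and TIMM23 have near-identical copies elsewhere in the genome, so the peaks assigned to them are uncertain.

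Over all members, another protein-coding TSS lay in the H3K4me3 peak for 245 (23.8%), compared with 40.6% of the acetylated class. A divergent protein-coding gene started within 1 kb of 13% of the members and 26.4% of the acetylated promoters. For both kinds of neighbor the share of the members was the lower one. H3K27ac touched the H3K4me3 peak beyond the window at 214 members (20.8%), and another start of the same gene had H3K27ac at 175 (17%), in all 4 libraries at 70 (6.81%). Of the members, 189 (18.4%) started inside the body of another protein-coding gene, compared with 22.9% of all H3K4me3 promoters. Between 184 and 188 members shared a peak with another member in a library, so the 1028 promoters stand for 932 to 934 separate peaks or groups of peaks.

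A stricter group, set after these values were seen, had the TSS base under H3K4me3 in all 4 libraries, no H3K27ac on the H3K4me3 peak and none at another start of the gene. It held 578 members (56.2% of them, and 5.67% of the H3K4me3 promoters). Its median widths were 3821 and 3946 bp under ATRA and 3599 and 2868 bp in control cells, close to those of the whole class, and 88.8% of it was island-like. The ETS motif was in 13.8% of it and the YY1 motif in 1.73%, near the 1.86% of all promoters. The short width, the CpG content and the low share of ETS motifs were therefore also found in this group, which can still hold peaks that reach the TSS of a neighbor.

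Most members lay some way from H3K27ac. The gap from the window to the nearest H3K27ac peak of any library had a median of 17098 bp, and 26.4%, 38% and 75.8% of the members had such a peak within 5, 10 and 50 kb of the TSS. In single libraries the median gap was 34780 and 22939 bp under ATRA and 50864 and 31154 bp in control cells. It was shorter the more H3K27ac peaks a library had. The farthest members were TSHZ3, a homeodomain zinc finger gene (995015 bp), AMOT, which codes for angiomotin (924784 bp), HTR7, a serotonin receptor gene (902000 bp), RPP30, a subunit of RNase P (888087 bp), and EPHA6, an ephrin receptor gene (698338 bp). Of these, TSHZ3 had widths of 6375 and 6605 bp under ATRA and 6124 and 3988 bp in control cells, while EPHA6 had 2170, 2097, 2447 and 1155 bp.

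At the edge of the rule a few bases decided whether a promoter was a member. The members nearest to H3K27ac were EHD4, NCOA1 and TRIM7, whose windows ended 8, 14 and 16 bp from a peak. The promoters just outside were RBBP9, PPP1CA and ERN1, with 1 H3K27ac library overlapping the window by 4, 5 and 9 bp. The mean widths of the first group were 4847, 6261 and 5572 bp and those of the second 2276, 1883 and 3406 bp. The members were thus the wider ones here, opposite to the whole classes. So few promoters cannot show how the classes meet. In all 3 members just inside the rule, H3K27ac of 2 or 3 libraries touched the H3K4me3 peak.

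The share of members differed between gene groups and was highest in groups of genes known from development and the nervous system. The shares that follow are of the promoters of a list that had H3K4me3 in all 4 libraries, and the share among all such promoters was 10.1%. They are descriptions, and the strict group's share, 5.67% over all, is given beside the main lists. By that share the ion channels and neurotransmitter receptors, at 11.1%, were not above the genes of the cilium and centrosome, at 11.4%. Signalling genes of development (WNT, BMP, FGF, ephrin, semaphorin and related families) had the highest share of the lists with more than 1 such promoter, 16 of 39 (41%, strict group 23.1%). They included the growth factors GDF11, FGF9, FGF8, FGF5, BMP6, TGFB3, WNT10B and NRG4, the Notch ligand DLL4, the WNT receptor FZD5 and the ephrins EFNA4, EFNA5 and EFNB1. FGF9 was in the strict group. GDF11, NRG4 and FGF8 were not, with H3K27ac of 2, 1 and 4 libraries on their H3K4me3 peaks. Only 11 of the 39 (28.2%) had H3K27ac in all 4 libraries, compared with 63.6% of all H3K4me3 promoters.

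Developmental transcription factors had 17 of 59 (28.8%, strict group 13.6%). Homeodomain genes (SHOX2, LHX2, LHX4, LBX2, IRX3, IRX6, SIX5, NKX3-2, HOXA3 and HOXA6), forkhead genes (FOXA1, FOXC1, FOXD1, FOXN4 and FOXO1) and the T-box genes TBX20 and EOMES made up the list's members. FOXO1 and LHX4 were in the strict group. SHOX2 and LBX2 were not, with H3K27ac of 3 and 4 libraries on their H3K4me3 peaks. Of the 301 genes of this list, 233 had no H3K4me3 in any library. Ion channels and neurotransmitter receptors had 13 of 45 (28.9%, strict group 11.1%), among them the calcium channel subunit CACNB3, the glutamate receptor GRIN2D, the sodium channel SCN8A, the potassium channels KCNJ2, KCNJ11, KCNH3 and KCNG3, and HTR7. Only 5 of the 13 were in the strict group. CACNB3, GRIN2D and HTR7 were not, and H3K27ac of 2 and 4 libraries touched the H3K4me3 peaks of CACNB3 and GRIN2D. Of these 3 lists, the promoters that kept H3K27ac in all 4 libraries were 39% of the transcription factors and 33.3% of the channels.

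Genes of the cilium and centrosome had 27 of 184 (14.7%, strict group 11.4%). The list takes whole CCDC and TTC series, and its members held parts of the BBSome and its assembly complex (BBS1, BBS7, BBS9 and BBS12), of intraflagellar transport (IFT27, WDR19, DYNC2I1, KIF3A and KIF3C) and of the transition zone (RPGRIP1L and TMEM67). The half-site GTTGCCAT of RFX factors, regulators of ciliary genes, was in 2.04% of all members, 1.11% of the acetylated class and 1.26% of all promoters, and in 1 of these 27 promoters. Peroxisome biogenesis had 2 of 15 (PEX19 and PEX11A) and solute carriers 14 of 140 (10%). Another start of PEX19 had H3K27ac in 3 libraries. The C2H2 zinc finger genes of the ZNF and ZFP series had 29 of 308 (9.42%), near the share of all promoters.

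Groups that every growing cell uses were rare among the members. Cytosolic ribosomal proteins had 0 of 79 and replication-dependent histones 0 of 47, with H3K27ac in all 4 libraries at 94.9% and 91.5% of them. Oxidative phosphorylation had 1 of 93 (NDUFS3), tRNA synthetases 1 of 36 (IARS2), mitochondrial ribosomal proteins 2 of 76 (MRPS6 and MRPL41), and RNA polymerases, Mediator and RNA modification 6 of 195. Of NDUFS3, IARS2, MRPS6 and MRPL41, only MRPL41 was in the strict group. Another start of NDUFS3 had H3K27ac in all 4 libraries, and another start of MRPS6 had it in 1. DNA replication and mitosis had 3 of 79 (RPA1, GINS2 and CENPI) and DNA repair 6 of 102 (NTHL1, RNF8, FANCE, NEIL2, RAD51D and FANCA). The strict group held RPA1 and CENPI of the former list and 2 genes of the latter, among them NTHL1.

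Of the myeloid granule, oxidase and surface genes 0 of 20 were members, and of the myeloid transcription factors 2 of 28 (7.14%), beside 10.1% of all H3K4me3 promoters. Such short lists would hold few members at that share. These were RARG, the gamma receptor for retinoic acid, and KLF4, and neither was in the strict group. Another start of RARG had H3K27ac in 2 libraries, and the TSS base of neither gene was covered in every library. RARG had widths of 3153 and 1967 bp under ATRA and 3393 and 2691 bp in control cells, which overlap as measured but not after each width was divided by the median of its library (then narrower, log2 ratio −0.44), and KLF4 had 1867 and 2761 bp under ATRA and 2228 and 1447 bp in control cells, which also overlap. The mean widths of RARG and KLF4 were thus well under the median of 8866 bp of the 28 promoters of this list. The only clustered protocadherin promoter with H3K4me3 in all 4 libraries, PCDHGA10, was a member, and no olfactory receptor promoter had H3K4me3 in all 4.

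**Figure D3:**
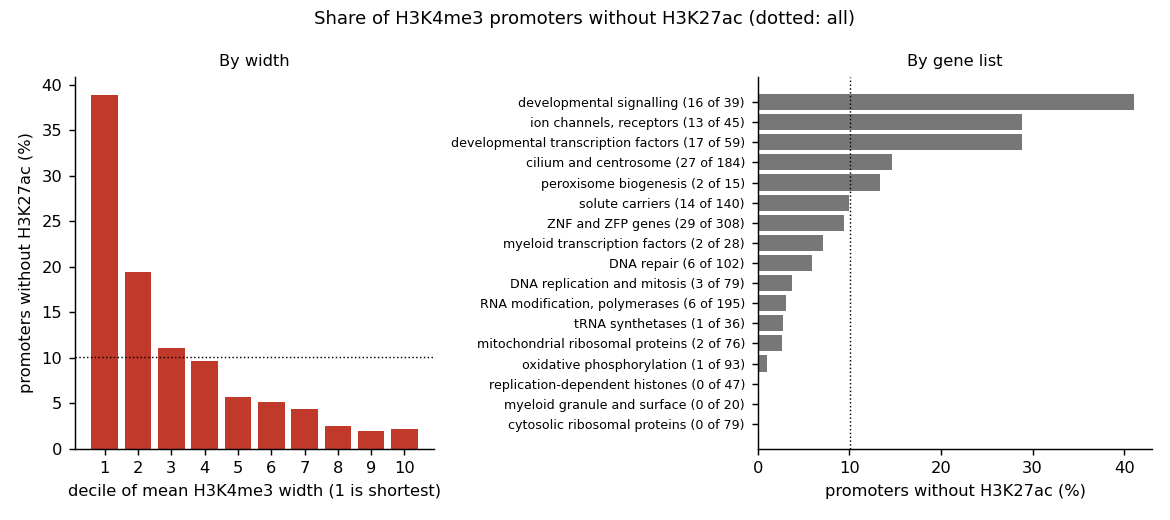
Share of H3K4me3 promoters that had no H3K27ac in any library (%), by decile of mean H3K4me3 width with about 1019 promoters each (left, bars from 0) and by gene list for lists with at least 10 H3K4me3 promoters (right, with the number of members of the number with H3K4me3 in all 4 libraries); the dotted lines mark the share over all, 10.1%. The share fell from 38.9% to 2.16% over the deciles, and ran from 41% in developmental signalling to 0 in ribosomal proteins, histones and myeloid granule genes.

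Under ATRA the H3K4me3 peaks of the members were longer on average, as were those of all H3K4me3 promoters. The change was taken as the log2 ratio of the mean width in ATRA-treated to that in control cells. Its median was 0.24 over the members (quartiles 0.02 and 0.46), with 804 above 0 and 224 under it, compared with 0.17 over all 10191 promoters and 0.15 over those acetylated in all 4 libraries. Both ATRA widths exceeded both control widths at 403 members (39.2%), where 41.8% of all H3K4me3 promoters did so. Both were under both control widths at 42 members (4.09%), where 4.69% of all did so. The members' counts were thus near the background in both directions. The strict group had 254 wider (43.9%) and 17 narrower (2.94%).

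The libraries did not give this change equally. The median log2 width of the members was 11.90 and 11.91 in the ATRA libraries and 11.82 and 11.45 in the control libraries. The difference between the conditions was 0.27. An exact two-sided permutation test over the 4 libraries, which ignored the replicate numbers, gave p = 0.33. This is the smallest p possible for 2 against 2 libraries. Within the libraries numbered 1 the median change of the members was 0.04, under the 0.07 of all promoters, and within those numbered 2 it was 0.42, over their 0.27. Without control replicate 2 the median change of the members was 0.07, and without control replicate 1 it was 0.45. The larger change of the members than of other promoters was therefore present in the libraries numbered 2 and absent in those numbered 1, and its share due to the short peaks of control replicate 2 was not tested.

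Dividing each width by the median width of its library moved the median of all promoters from 0.17 to −0.03 and that of the members to 0.06. On that scale 221 members were wider (21.5%) and 170 narrower (16.5%), compared with 18% and 24.9% of all promoters. The balance of wider and narrower members therefore depends on the scaling. The members named next were the 10 with the largest rise and the 10 with the largest fall among those whose ATRA and control widths did not overlap. Larger ratios at members with overlapping widths were left aside, and the groups of these 20 did not overlap after scaling either.

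**Figure D4:**
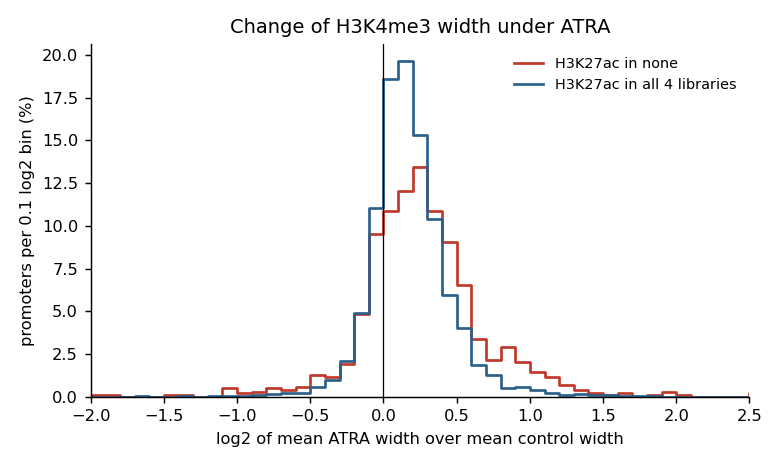
Distribution of the log2 ratio of mean ATRA to mean control H3K4me3 width (horizontal axis), as the percent of promoters in each 0.1 log2 bin (vertical axis), for promoters without H3K27ac (red, n = 1028) and with H3K27ac in all 4 libraries (blue, n = 6486). Both distributions lie mostly above 0, with medians of 0.24 and 0.15, and the red one is broader.

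Among members without overlap the largest rise was at IFFO1, a gene related to intermediate filaments. Its widths were 11683 and 11083 bp under ATRA and 3468 and 1944 bp in control cells (log2 ratio 2.07). The 2 conditions were far apart, and the TSS was covered in all libraries, with H3K27ac on the long peak 1562 bp beyond the window and at another start of the gene in 3 libraries. MEN1, which codes for menin, a subunit of MLL methyltransferase complexes, had 13577 and 12287 bp under ATRA and 3812 and 3107 bp in control cells (1.90). Its peak also held another protein-coding TSS and met H3K27ac in all 4 libraries, and the TSS base of MEN1 was not covered in every library. LIN7B, a cell polarity scaffold gene, had 7730 and 8006 bp under ATRA and 2549 and 2380 bp in control cells (1.67), again with other starts and H3K27ac on the peak.

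RAB40B, a small GTPase gene, and CFAP53, a ciliary gene, were the largest rises without overlap in the strict group. RAB40B had 5032 and 3276 bp under ATRA and 1916 and 888 bp in control cells (1.57), and CFAP53 had 4153 and 4131 bp under ATRA and 1798 and 1374 bp in control cells (1.38). Others of the 10 largest rises without overlap were ZNF816-ZNF321P, HNRNPH1, MAGEE1 and CSGALNACT1, with log2 ratios from 1.39 to 1.96. The TSS base of these 4 was not covered in every library. Some of their control peaks were close to the shortest found in any library, 200 bp. The control widths were 212 and 230 bp at ZNF816-ZNF321P. In control replicate 2 the width was 209 bp at HNRNPH1, 290 bp at MAGEE1 and 501 bp at CSGALNACT1. Other starts of HNRNPH1 and CSGALNACT1 had H3K27ac, in 4 and 2 libraries.

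Among members without overlap the largest fall was at NYAP1, a neuronal adaptor of phosphoinositide 3-kinase, with 628 and 2509 bp under ATRA and 10112 and 10285 bp in control cells (log2 ratio −2.70). In this case the control peaks held 2 other protein-coding TSS and H3K27ac of all 4 libraries touched them. AQP6, an aquaporin gene of the kidney whose sequence is shown above, had 281 and 200 bp under ATRA and 2490 and 563 bp in control cells (−2.67), so its peaks were close to the shortest found in any library, 200 bp. DPYSL5, a neuronal gene, had 389 and 238 bp under ATRA and 1258 and 1230 bp in control cells (−1.99). The TSS bases of NYAP1, AQP6 and DPYSL5 were not covered in every library.

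Of the 10 largest falls without overlap, 3 belonged to the strict group. IL12A, the p35 subunit of interleukin 12, had 811 and 733 bp under ATRA and 2325 and 1904 bp in control cells (−1.45), with no H3K27ac for 36118 bp around the window. CCNA1, the gene of cyclin A1, had 1211 and 1194 bp under ATRA and 2833 and 2215 bp in control cells (−1.07). TSKU, a secreted leucine-rich repeat protein gene, had 2526 and 2047 bp under ATRA and 4958 and 3987 bp in control cells (−0.97). In these 3 genes the replicates lay close together and the conditions apart, and the TSS was covered in all 4 libraries. The other 4 of these falls, at FGFR1, DOCK6, ELFN1 and EBF4, ranged from −1.08 to −1.31 on the log2 scale. At these genes the TSS base was not covered in every library.

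**Figure D5:**
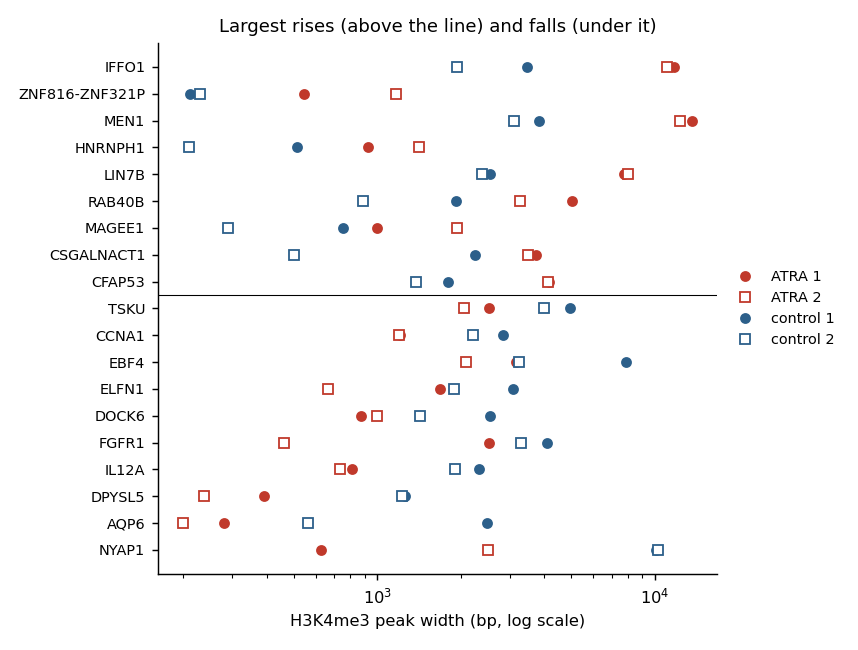
H3K4me3 peak width (horizontal axis, bp, log scale) in each library for 9 of the 10 members with the largest rise (above the line) and the 10 with the largest fall (under it) among those without overlap; red is ATRA, blue is control, filled circles are replicate 1 and open squares replicate 2. These genes were chosen because their ATRA and control widths do not overlap, from 281 and 200 bp against 2490 and 563 bp at AQP6 to 13577 and 12287 bp against 3812 and 3107 bp at MEN1.

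The change of width is given here by gene list, beside the shares of 41.8% wider and 4.69% narrower over all promoters. Of the 29 members of the ZNF and ZFP series, 17 were wider under ATRA and 0 narrower, with a median log2 ratio of 0.46, and 8 were wider and 1 narrower after scaling by library. Among all 308 H3K4me3 promoters of the series, acetylated ones included, 169 (54.9%) were wider. ZNF530 had 6451 and 9286 bp under ATRA and 6062 and 3914 bp in control cells, and ZNF71 had 7109 and 7448 bp under ATRA and 5981 and 6454 bp in control cells, so both were wider without overlap, by 0.66 and 0.23 on the log2 scale, although after scaling the groups of both overlapped. ZNF461, the widest of them, had 5830 and 11757 bp under ATRA and 5161 and 5942 bp in control cells, which overlap.

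The developmental lists had members in both directions. Of the 17 developmental transcription factors, 4 were wider and 2 narrower (2 and 5 after scaling), and of the 16 signalling genes 3 were wider and 1 narrower (1 and 4 after scaling). FOXO1, a forkhead factor downstream of insulin signalling, had 5105 and 8814 bp under ATRA and 6626 and 4640 bp in control cells, and LHX4, a LIM homeodomain factor, had 5686 and 5912 bp under ATRA and 5891 and 5796 bp in control cells. In both the groups overlapped, but after scaling LHX4 was narrower without overlap (log2 ratio −0.21). FGF9, a fibroblast growth factor gene, had 6840 and 7094 bp under ATRA and 5657 and 5700 bp in control cells, without overlap (log2 ratio 0.30), although after scaling its groups overlapped. GDF11, a growth factor of the TGF-beta family, had 11241 and 10956 bp under ATRA and 10217 and 6333 bp in control cells and was wider on both scales (0.42 and 0.25). H3K27ac of 2 libraries touched its H3K4me3 peak.

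Of the 27 ciliary and centrosomal members, 8 were wider and 0 narrower (6 and 5 after scaling). CCDC136 had 4963 and 6685 bp under ATRA and 4416 and 3586 bp in control cells and was wider on both scales (0.54 and 0.35). INPP5E, a ciliary phosphatase gene, had 6631 and 5967 bp under ATRA and 6133 and 5202 bp in control cells, which overlap. Of the 13 channel and receptor genes 6 were wider and 0 narrower (2 and 1 after scaling), and of the 14 solute carriers 5 were wider and 3 narrower (4 and 7 after scaling). SLC12A7, a potassium chloride cotransporter gene, had 4942 and 4971 bp under ATRA and 10378 and 6040 bp in control cells and was narrower on both scales (−0.73 and −0.90), whereas SLC41A2, a magnesium transporter gene, had 5206 and 5304 bp under ATRA and 3948 and 2632 bp in control cells and was wider on both (0.68 and 0.50). H3K27ac of 4 libraries touched the H3K4me3 peak of SLC12A7, and the nearest H3K27ac lay 26 bp beyond its window. SLC41A2 was in the strict group.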

How the data were processed

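ChIP-seq of H3K4me3 and H3K27ac was analyzed in HL-60 cells, with 2 libraries per mark and condition. The authors trimmed adapters, mapped the reads to hg19 (Bowtie) and called peaks per library in the broad mode of MACS2. They deposited the position of each peak and its −log10 q, which was used as a filter and to describe the peaks of the members. The other score columns held impossible values and were not used. Overlap was at least 1 bp with the promoter of GENCODE release 44 lifted to GRCh37. Peak width was compared as a log2 ratio of condition means, and the members' median log2 width with an exact permutation test. Members and gene lists were chosen with earlier results of these data known. Named genes were those at the ends of mean width, width change, distance from H3K27ac and the edge of the rule, and up to 4 of the widest per list. The printed sequences skipped chromosome 8 and stretches with annotated exons, a choice made after the files were read, as was printing 1 for each of 4 lists. Some items that these rules cover are not reported here. Peak names of libraries with the same number carry a common tag. Their differences between replicates in ATRA and control H3K4me3 width correlated weakly (Pearson r = 0.189 over 10191 promoters, 0.132 over the 1028 members). The numbers were therefore read as pairs in the paired comparison, but the permutation test did not use them. The scripts recovered planted members and changes in simulated peaks. Python 3.11.15, numpy 2.4.6, pandas 2.3.3 and scipy 1.17.1 were used.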

Additional observations from a re-analysis of the deposited data

How the results depend on the processing

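The number of members was 516 with H3K4me3 peaks of −log10 q of at least 5 only, 6433 with H3K27ac peaks of at least 5 only, and 578 in the stricter group added after seeing the data. It lay between 754 and 1156 for other TSS sets, windows and overlaps, and between 1031 and 1412 when 1 library was left out. With TSS of canonical transcripts 875 of the 1028 members were kept (85.1% of them and 86% of the 1018 found), and 99 had H3K27ac at the canonical TSS. Scaled by library, 221 members were wider and 170 narrower. In the paired comparison (replicate block), 517 were wider (50.3%, against 54.7% of all promoters) and 78 narrower (7.59%, against 8.35%), with a median change of 0.26. Leaving out 1 library, an alternative added for these counts after seeing the data, gave 434 to 817 wider and 61 to 276 narrower members and a median change of 0.07 to 0.45; the highest count of wider members came without control replicate 1 and the highest of narrower without control replicate 2, with fewer widths to separate in each case. The median change stayed above 0 in all alternatives run. The unknown depth limits how far peak widths can be compared between libraries.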

Other observations

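Of the 10191 H3K4me3 promoters, between 69.4% and 85.5% had H3K27ac in a given library, and 384 had it in ATRA replicate 2 alone, compared with 23 to 150 in each of the other libraries alone. Without that library 1412 promoters would have been members. The share of H3K4me3 promoters without H3K27ac was 14.3% on chromosome X (43 of 301), 13.4% on chromosome 17 (84 of 625) and 8.03% on chromosome 11 (48 of 598).

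The CCAAT box was in 35.6% of the members and 37.5% of the promoters with H3K27ac in all 4 libraries, and the E-box CACGTG in 9.24% and 10.6%. The NRF1 core GCGCATGC was in 4.47% and 6.74%, compared with 3.76% of all promoters.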
